A study of Mus musculus with 17 samples.

Results

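The MYC, MAX and MXD network was followed through 5 genes, Myc, Max, Mxi1, Mxd4 and Mnt, in NIH 3T3, a fibroblast line derived from mouse embryos. Every probe set annotated to exactly 1 of these genes was taken, which gave 10 of 22690 probe sets in a table of 8 oligonucleotide arrays and 5 of 12488 in a table of 9. The series asked which transcripts the growth factor PDGF induces in quiescent cells and which signalling kinases that induction needs. In the Src experiment, the 8-array table, quiescent cells received PDGF at 25 ng/ml for 1 h with SU6656 at 2 µM, an inhibitor of Src family kinases, with UO126 at 10 µM, an inhibitor of the ERK kinase MEK, with LY294002 at 7.5 µM, an inhibitor of PI3K, or with vehicle, and each of these also without PDGF. A repeat of that experiment, in the 9-array table, had PDGF with SU6656, PDGF alone and vehicle, at the same doses and time. The MEK experiment, also in the 9-array table, had PDGF at 25 ng/ml with UO126 at 10 µM, with the MEK inhibitor PD98059 at 7.5 µM or alone, the same inhibitors without PDGF, and untreated cells. Its PDGF time is not given in the sources used here. Each condition was on 1 array per experiment, the cells were a single line, and the labels do not state whether arrays came from separate cultures, so p-values reflect the spread among these arrays only, and that spread may be technical.

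MYC is a basic helix-loop-helix leucine zipper transcription factor. It binds DNA as a dimer with MAX, preferentially at the E-box CACGTG, and raises genes of growth and biosynthesis. MXI1, MXD4 and MNT also pair with MAX, bind the same sites and bring in SIN3 corepressors, so they are regarded as antagonists of MYC. Myc is a classical immediate early gene, kept low in quiescent fibroblasts and raised within hours by serum or PDGF, and its mRNA and protein both turn over fast. Src family kinases and the ERK pathway have both been linked to that induction.

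The E-box of the network also occurs in promoters of its own genes, and the 3 promoters that hold it are shown for that reason. Sequences are from RefSeq, build GRCm38.p6, each of 300 bases (250 before and 50 after the annotated start), and 4 of the 5 genes matched. Capitals mark CACGTG, which reads the same on both strands. The Mxd4 promoter lies at chr5:34187661-34187960 on the minus strand, the Max promoter at chr12:76962199-76962498 on the minus strand, and the Mnt promoter at chr11:74830674-74830973 on the plus strand.
Mxd4: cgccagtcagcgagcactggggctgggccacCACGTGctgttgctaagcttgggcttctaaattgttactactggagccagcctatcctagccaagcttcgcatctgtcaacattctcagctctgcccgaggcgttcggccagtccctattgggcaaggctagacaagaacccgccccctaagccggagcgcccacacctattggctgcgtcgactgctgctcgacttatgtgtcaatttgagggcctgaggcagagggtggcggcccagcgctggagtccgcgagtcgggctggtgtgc
Max: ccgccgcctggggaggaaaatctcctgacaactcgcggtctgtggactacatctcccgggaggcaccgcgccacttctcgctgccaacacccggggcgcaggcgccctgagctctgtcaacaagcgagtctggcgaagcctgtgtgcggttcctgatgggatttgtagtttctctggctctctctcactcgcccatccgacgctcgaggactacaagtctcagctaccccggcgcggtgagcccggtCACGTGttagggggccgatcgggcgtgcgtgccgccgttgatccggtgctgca
Mnt: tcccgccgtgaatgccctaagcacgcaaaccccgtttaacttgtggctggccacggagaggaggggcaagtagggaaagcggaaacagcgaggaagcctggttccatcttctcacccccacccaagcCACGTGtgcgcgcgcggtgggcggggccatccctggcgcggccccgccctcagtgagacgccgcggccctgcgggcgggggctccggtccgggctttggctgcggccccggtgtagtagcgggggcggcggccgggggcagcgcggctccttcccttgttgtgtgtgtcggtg
The E-box began at position −219 relative to the annotated start in Mxd4, −3 in Max and −123 in Mnt. None of the 3 promoters listed for Mxi1 held it. Among all 32851 promoters of the same length, 7.15% did. A match describes these letters in this window and does not show binding.

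Values were deposited as signal, an intensity on a linear scale. Array medians were 133.7 to 198.4 units, and precision is limited by how few arrays there are. Of the fibroblast markers, 11 of 11 on each array type were above the filter on dim probe sets, with median percentiles by mean signal of 99.8 and 98.6, and 1 of them, the PDGF receptor gene Pdgfra, fell with PDGF in the 9-array table (−0.65 on the log2 scale, SE 0.116, limma adjusted p = 0.0189). Among markers of leukocytes, epithelium, endothelium, fat and muscle, Ptprc, Itgam, Epcam, Tek, Adipoq and Fabp4 were below that filter in both tables. Others passed. In the 8-array table the filter kept 3 of 5 leukocyte markers. For epithelium, for endothelium and for fat and muscle it kept 2 of 4 each. In the 9-array table the filter kept 2 of 5 leukocyte and 3 of 4 epithelial markers. It kept 1 of 4 for endothelium and 1 of 4 for fat and muscle there. The epithelial claudin gene Cldn3 rose with PDGF in the 8-array table (1.42, SE 0.272, limma adjusted p = 0.0215) and had 0.17 (SE 0.224, adjusted p = 0.811) in the 9-array table. The summed signal of the 4 epithelial markers was 339.6 to 531.9 with PDGF and 94.9 to 453.9 without in the 8-array table, and 429.2 to 589.2 with PDGF and 431.8 to 578.7 without in the 9-array table, and its part in the results on the network was not tested. On the array of untreated cells, which is the basal array of the MEK experiment, the 3′ Gapdh control was 1.13 times as bright as the 5′ control, while on the other 16 arrays the ratio lay between 0.739 and 0.907. The same ratio for the b-Actin control did not set that array apart. It was 1.473 there and 1.191 to 1.67 on the other arrays of its table.

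Myc rose with PDGF in every pair of arrays, and it was the only member of the 5 that passed the test, in both tables. In the Src experiment the Myc signal (probe set 1424942_a_at) was 1629.7 with PDGF and 403.5 with vehicle. In the MEK experiment (probe set 104712_at) it was 501.9 with PDGF and 66.2 in untreated cells, and in the repeat 800.6 with PDGF and 263.2 with vehicle. All 3 PDGF arrays were above all 3 basal arrays within their experiments. After quantile normalisation within a table, log2 was taken of each value with an offset added, the 20th percentile of the table, which understates changes of dim probe sets. On that scale Myc was higher with PDGF by 1.95 in the Src experiment, 2.59 in the MEK experiment and 1.64 in the repeat, a mean of 2.06 ± 0.48 (SD, n = 3 experiments), or 4.17-fold. Only 0.366%, 0.31% and 1.25% of the probe sets kept had a larger difference between the same arrays. In RNA of a whole culture, more cells that express a gene and more RNA per cell cannot be told apart.

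**Figure D1:**
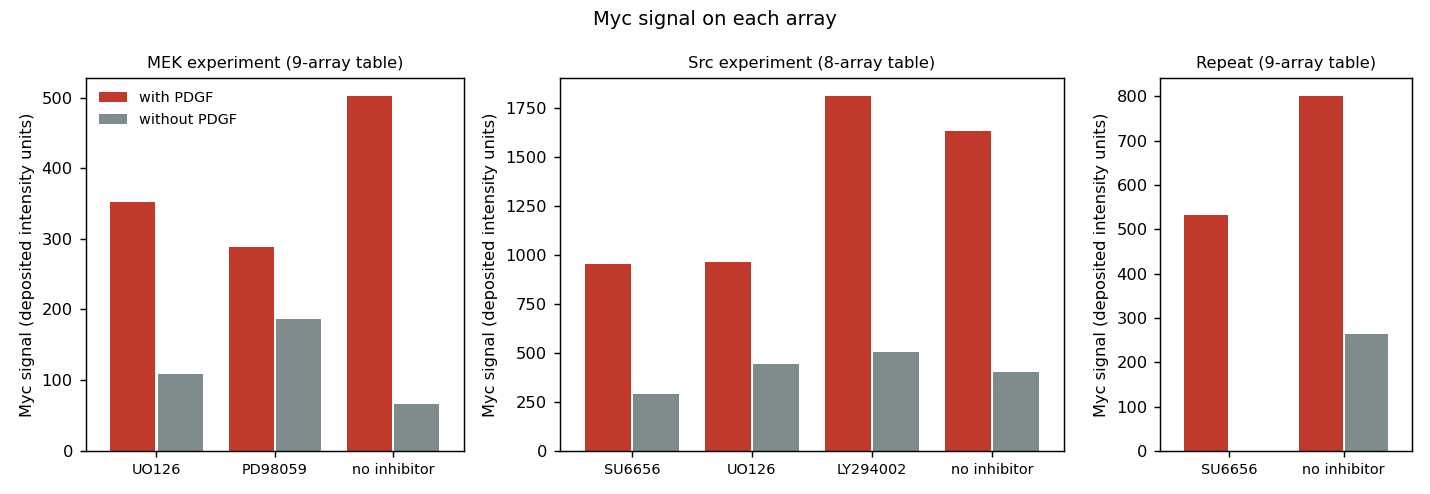
Myc signal (y axis, deposited intensity units, linear from 0) on each of the 17 arrays, with PDGF in red and without in grey, by inhibitor and experiment, with a y scale of its own in each panel; each bar is 1 array, and the repeat has no array of SU6656 without PDGF. Every PDGF array is above its partner, and the red bars with SU6656, UO126 or PD98059 are below the red bar without inhibitor.

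Taking the 4 pairs of each table together, the inhibitor pairs included, the PDGF effect on Myc in limma was 1.60 on the log2 scale in the 8-array table (SE 0.139, adjusted p = 0.000167) and 1.59 in the 9-array table (SE 0.264, adjusted p = 0.0122). These are 3.04-fold and 3.01-fold. Of the 5 members 1 rose and 0 fell in the 8-array table, where 2.5% of all 15839 probe sets tested rose and 0.814% fell. In the 9-array table the counts were also 1 and 0, where 1.43% of 8696 rose and 0.264% fell. By p, Myc ranked 70 of 15839 and 90 of 8696. The 4 arrays with PDGF did not overlap the 4 without in either table: 950.7 to 1807.8 against 289.2 to 504.5 in the 8-array table, and 288.9 to 800.6 against 66.2 to 263.2 in the 9-array table. Such a gap upward was seen for 3.43% and 2.29% of probe sets, and a rise in all 4 pairs for 10.5% and 9.11%. A two-sided exact permutation test on the first of these sets gave p = 0.0286, the smallest that 4 against 4 arrays can give. It regrouped the 8 arrays without keeping their pairs, so it treats arrays of different inhibitors as replicates. The call in the 9-array table did not hold without the UO126 or the PDGF with UO126 array of the MEK experiment, or without either array of the repeat pair (log2 1.57 to 1.61, limma adjusted p = 0.0599 to 0.0997), and without the pairing of arrays as a block its adjusted p was 0.148.

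The size of the response differed between pairs. Within the inhibitor pairs, Myc was higher with PDGF by 1.78 in LY294002, 1.62 in SU6656 and 1.05 in UO126 in the Src experiment, where the pair without inhibitor gave 1.95. In the MEK experiment it was higher by 1.54 in UO126 and 0.59 in PD98059, where the pair without inhibitor gave 2.59. Each is a difference between 2 arrays, and the differences between pairs have no replicate. The PD98059 pair was the lowest of the 8.

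**Figure D2:**
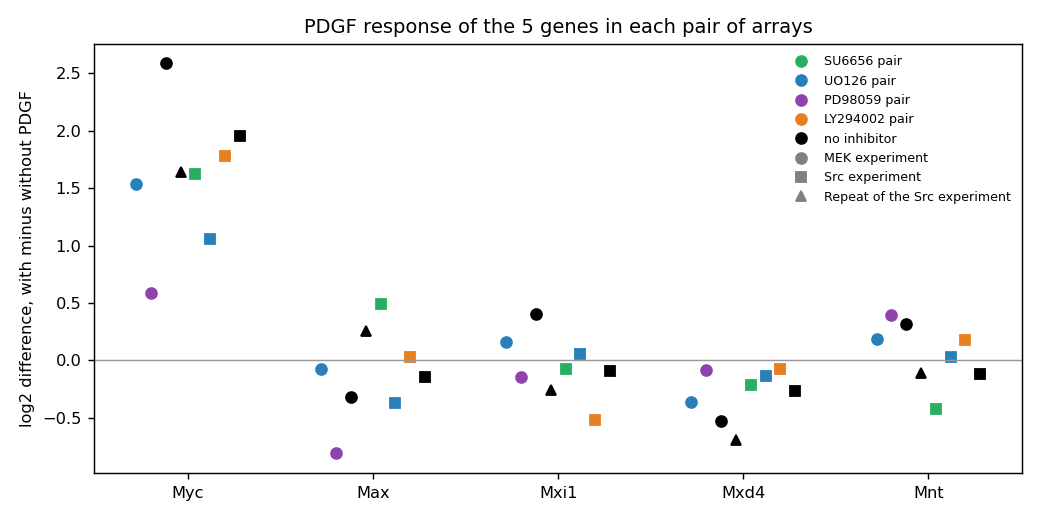
PDGF response of Myc, Max, Mxi1, Mxd4 and Mnt, each at its brightest probe set (y axis, log2 difference with minus without PDGF); colours give the inhibitor that both arrays of a pair share and symbols the experiment. The 8 values of Myc lie between 0.59 and 2.59, those of Mxd4 are all below 0, and those of Max, Mxi1 and Mnt lie on both sides of it.

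The Src dependence of Myc induction can be read from 2 experiments. In the Src experiment Myc had 950.7 signal units in PDGF with SU6656, against 1629.7 in PDGF alone. In the repeat it had 531.3 in PDGF with SU6656, against 800.6 in PDGF alone. The arrays with the inhibitor were lower in both, by log2 differences of −0.76 and −0.62 (mean −0.69 ± 0.10, SD, n = 2 experiments). Both stayed above their vehicle array, 403.5 and 263.2: over vehicle, PDGF with SU6656 gave 1.20 and 1.02, which is 61.3% and 62.3% of the log2 response to PDGF alone. SU6656 without PDGF gave 289.2 units, the lowest of the 8 arrays, against 403.5 with vehicle, a difference of −0.43. Because SU6656 was lower on both sides, the response within its own pair, 1.62, was closer to the 1.95 without inhibitor than the comparison over vehicle.

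Across many probe sets, limma tested the level of Myc with SU6656. In the 8-array table this covers arrays with and without PDGF, so it is no test of induction. There the PDGF response in the SU6656 pair minus that in the pair without inhibitor was −0.33, which was not tested. The SU6656 effect on Myc over its 2 arrays, with and without PDGF, against the 2 without inhibitor in the 8-array table was −0.59 (SE 0.197, 95% interval −1.03 to −0.15), with an unadjusted p = 0.0139 and a limma adjusted p = 0.5. In the 9-array table, where the SU6656 term rests on 1 array assumed to vary like the others, it was −0.86 (SE 0.386, 95% interval −1.71 to 0.0026, adjusted p = 0.831). Neither passed the threshold. Without the array of PDGF alone the effects were −0.36 in the 8-array table and, for the repeat, −1.58 in the 9-array table. These fits called 0.107% and 0% of probe sets, with 516 of 8696 at an unadjusted p under 0.05 in the 9-array table.

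MEK dependence can be read from 3 contrasts, of which both of the MEK experiment share a PDGF array. The contrast of the Src experiment shares its array of PDGF alone with the SU6656 contrast there. In the MEK experiment Myc had 352.8 units in PDGF with UO126 and 288.9 in PDGF with PD98059, against 501.9 in PDGF alone. In the Src experiment it had 960.2 in PDGF with UO126, against 1629.7 in PDGF alone. All 3 were lower with the inhibitor, by log2 differences of −0.45, −0.74 and −0.75 (mean −0.65 ± 0.17, SD, n = 3 contrasts). Over the basal array, PDGF with a MEK inhibitor still gave 2.14, 1.84 and 1.20, which is 82.6%, 71.3% and 61.6% of the log2 response to PDGF alone. Over the array of the same inhibitor without PDGF, the share was 59.5%, 22.7% and 54.0%.

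Without PDGF the MEK inhibitors went the other way. Myc had 109.3 units with UO126 and 187 with PD98059, against 66.2 in untreated cells, and 444.8 with UO126, against 403.5 with vehicle, in the Src experiment. The log2 differences were 0.60, 1.26 and 0.15, all above 0. Basal cells of the MEK experiment were untreated, so effects of inhibitor and vehicle cannot be told apart in the 0.60 and 1.26. The comparison against vehicle gave the 0.15. The 0.60 and 1.26 use the untreated array whose Gapdh ratio, but not its b-Actin ratio, stood apart. So do the PDGF response of 2.59 in the MEK experiment and the shares of it given above. The 66.2 on that array was dim, below the array medians of its table, 133.7 to 156.15. At the same probe set the vehicle array of the repeat had 263.2. The part of the Gapdh ratio and of the dim signal in these values was not tested. Without that array the PDGF effect on Myc in the 9-array table was 1.257, where the main value was 1.589. With UO126 and PD98059 as replicates in limma, MEK inhibition in the 9-array table gave −0.36 with PDGF (SE 0.326, 95% interval −1.09 to 0.37, adjusted p = 0.866) and 0.69 without PDGF (SE 0.326, 95% interval −0.03 to 1.42, adjusted p = 0.71). The value with PDGF is closer to 0 than the direct differences because the fit sets the inhibitor arrays against a PDGF level estimated from both experiments of the table. It turned to 0.35 without the PDGF array of the MEK experiment and lay between −0.60 and −0.21 without other single arrays, and the value without PDGF turned to −0.02 without the untreated array. For UO126 over both its arrays in the 8-array table the effect was −0.30 (SE 0.197, 95% interval −0.74 to 0.14, adjusted p = 0.702), and −0.67 to 0.06 with single arrays left out, the lowest without UO126 alone and the highest without PDGF with UO126. None passed the threshold, and these fits called 0%, 0.0115% and 0.0442% of probe sets, the first with 625 of 8696 at an unadjusted p under 0.05.

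The PI3K inhibitor is in the Src experiment alone. Myc had 1807.8 units in PDGF with LY294002, the highest of the 8 arrays, against 1629.7 in PDGF alone, and 504.5 with LY294002 alone, against 403.5 with vehicle. The differences were 0.15 and 0.32, and the limma effect was 0.24 (SE 0.197, 95% interval −0.21 to 0.68, adjusted p = 0.676). It was 0.0023 without the vehicle array, 0.47 without PDGF alone, 0.36 without LY294002 alone and 0.12 without PDGF with LY294002. The interval does not show that LY294002 left Myc as it was. The interval covers rises of up to 0.68 and falls of up to 0.21. LY294002 called 0.511% of probe sets.

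Myc was set beside other PDGF-induced genes, which had to be at least 2-fold above basal in each experiment of the table not used to measure them. With SU6656 in the Src experiment, 14 of 72 such genes had a lower value than the −0.76 of Myc, and their median was −0.43. With SU6656 in the repeat, 29 of 116 were lower than Myc, and the median was −0.22. With UO126 in the Src experiment, 13 of 72 were lower than Myc (median −0.21). In the MEK experiment 36 of 116 were lower than Myc with UO126 (median −0.26) and 21 of 116 with PD98059 (median −0.19). With LY294002, 45 of 72 were lower than Myc and the median was 0.0038. On PDGF-treated arrays Myc thus lay below the median of induced genes in all 5 contrasts with a Src or MEK inhibitor and above it with LY294002. Without PDGF it lay above that median with the MEK inhibitors. There 93 of 116 induced genes were lower than Myc with UO126 and 114 of 116 with PD98059 in the MEK experiment (medians 0.08 and −0.05), and 50 of 72 with UO126 in the Src experiment (median −0.03). With SU6656 without PDGF 18 of 72 were lower than Myc (median −0.12), and with LY294002 without PDGF 44 of 72 (median 0.22). All genes of a contrast share its 2 arrays. The inhibitor contrasts within the Src experiment also share the array of PDGF alone, as do those within the MEK experiment. Without PDGF they share the basal array, so contrasts of an experiment are not independent.

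**Figure D3:**
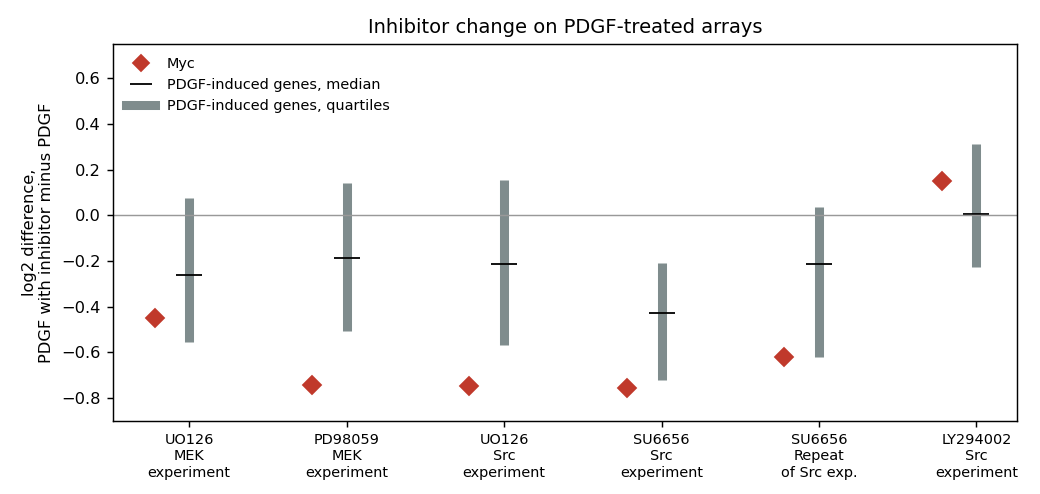
Change with each inhibitor on PDGF-treated arrays (y axis, log2 difference of PDGF with inhibitor minus PDGF alone of the same experiment) for Myc (red diamonds) and for genes induced by PDGF in the other table (black dash, median; grey bar, quartiles; 72 genes for the Src experiment, 116 for the others). Myc is below 0 in 5 contrasts, from −0.76 to −0.45, and at 0.15 with LY294002.

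Max encodes the obligate partner of MYC and of the antagonists. With PDGF its signal was 67.5 in the Src experiment, 347.8 in the MEK experiment and 384.5 in the repeat, against 82.2, 429.4 and 328.4 on the basal arrays of the same experiments. The arrays with PDGF were lower in 2 experiments and higher in 1, with a mean log2 difference of −0.07 ± 0.29 (SD, n = 3). The limma effects of PDGF were −0.0020 (95% interval −0.51 to 0.51, adjusted p = 0.998) in the 8-array table, where the sign changed without the arrays of the vehicle or the UO126 pair, and −0.24 (95% interval −0.63 to 0.16, adjusted p = 0.622) in the 9-array table. Its probe set in the 8-array table was dim, at a mean of 104.1 units and the 37.5th percentile. With SU6656 under PDGF, Max differed by 0.81 in the Src experiment and −0.13 in the repeat, so the experiments disagreed.

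Mxi1 encodes a MAX partner of the MXD family that represses at E-boxes. At its brighter probe set of the 8-array table (1450376_at) the signal with PDGF was 767.6 with SU6656, 701.1 with UO126, 696.8 with LY294002 and 581.6 without inhibitor. Without PDGF it was 809.2 with SU6656, 672.6 with UO126, 1019.1 with LY294002 and 636.9 with vehicle. The highest array was LY294002 alone, and arrays with and without PDGF overlapped. PDGF effects were −0.16 (95% interval −0.41 to 0.09, adjusted p = 0.529) here, −0.07 (adjusted p = 0.808) at the dimmer probe set, and 0.04 (95% interval −0.29 to 0.37, adjusted p = 0.947) in the 9-array table, where the sign changed without either array of the untreated or the UO126 pair. LY294002 gave 0.44 (SE 0.156, 95% interval 0.09 to 0.79, unadjusted p = 0.0182, adjusted p = 0.26) and 0.36 (unadjusted p = 0.0482, adjusted p = 0.37) at the 2 probe sets, which share their arrays. Neither passed the threshold.

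Mxd4 encodes another MXD repressor, a family often expressed in cells that have left the cycle. Its signal in the 9-array table was 1118.9 with PDGF against 1620.2 in untreated cells of the MEK experiment, and 1649.1 with PDGF against 2661.9 with vehicle in the repeat. In the Src experiment its brightest probe set (1434378_a_at) had 852.5 with PDGF and 1036.5 with vehicle. Mxd4 was lower with PDGF over basal in all 3 experiments, with log2 differences of −0.53, −0.69 and −0.27 (mean −0.50 ± 0.22, SD, n = 3). It was also lower in 4 of 4 pairs of each table, a pattern that 14.3% of probe sets showed in the 8-array table and 12.5% in the 9-array table. Arrays with and without PDGF overlapped in both tables. In limma the effect was −0.42 in the 9-array table (SE 0.12, 95% interval −0.69 to −0.15, unadjusted p = 0.00577, adjusted p = 0.166) and −0.17 in the 8-array table (SE 0.0807, 95% interval −0.36 to 0.01, adjusted p = 0.324). Neither passed the threshold. The exact permutation test over the 8-array table, which did not keep the pairs, gave p = 0.0857.

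The 4 probe sets of Mxd4 in the 8-array table did not move alike. Their PDGF effects were −0.17 at 1434378_a_at, −0.11 at 1434379_at, 0.05 at 1422574_at and −0.12 at 1422575_at. The second brightest, 1434379_at, had 398.2 units with PDGF and 557.7 with vehicle, but 788.9 in PDGF with LY294002 and 631.9 in LY294002 alone. At that probe set SU6656 gave 0.59 (SE 0.184, unadjusted p = 0.0106, limma adjusted p = 0.476) and LY294002 0.53 (SE 0.184, unadjusted p = 0.0172, limma adjusted p = 0.256).

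**Figure D4:**
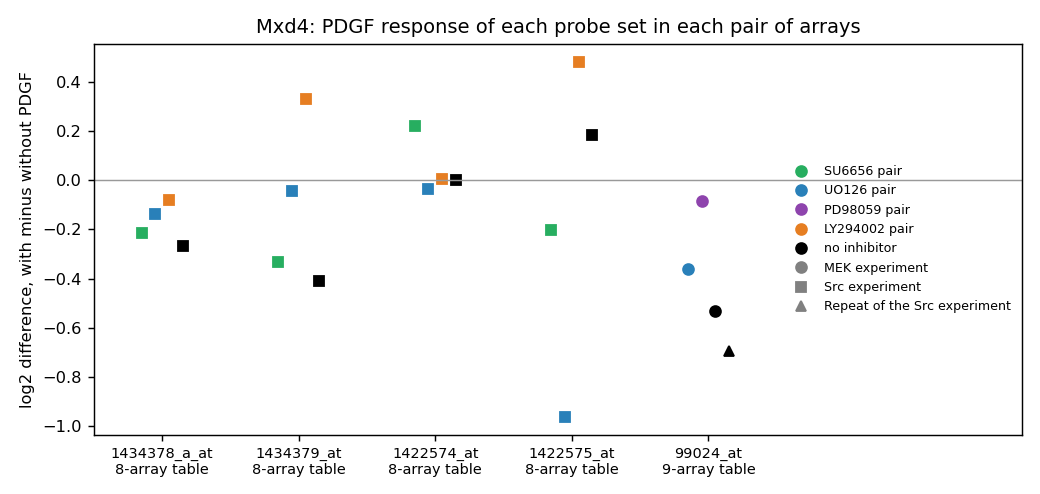
PDGF response of Mxd4 in each pair of arrays (y axis, log2 difference with minus without PDGF) at its 4 probe sets of the 8-array table and its 1 of the 9-array table; colours give the inhibitor both arrays share and symbols the experiment. All 4 pairs are below 0 at 1434378_a_at and at 99024_at, while the other 3 probe sets have pairs on both sides.

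Mnt encodes a MAX partner present in most cells, which competes with MYC for MAX and for E-boxes. With PDGF its signal was 474.2 in the Src experiment, 624.4 in the MEK experiment and 323.1 in the repeat, against 531.9, 480.4 and 357.9 on the basal arrays. It was higher in 1 experiment and lower in 2, with a mean of 0.03 ± 0.25 (SD, n = 3). Limma gave −0.08 (95% interval −0.35 to 0.19, adjusted p = 0.8) in the 8-array table, where the sign changed without either SU6656 array, and 0.20 (95% interval −0.10 to 0.50, adjusted p = 0.587) in the 9-array table. A dimmer Mnt probe set of the 8-array table, 1418193_at, at the 41.7th percentile, went the other way in the Src experiment. It had 177.6 with PDGF and 98.4 with vehicle, a log2 difference of 0.71, against −0.12 at the brighter 1418192_at. Its limma PDGF effect was 0.06 (adjusted p = 0.939). The highest Mnt value of the 9 arrays, 872.4, was PDGF with PD98059, and PD98059 alone had 665.2. With UO126 the same experiment had 514.6 with PDGF and 449.9 without, so the MEK inhibitors did not share that level.

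Over the inhibitor fits, limma called 0 of 50 tests of member probe sets, with 7 of 50 at an unadjusted p under 0.05 and a lowest adjusted p of 0.256. Over all probe sets, 8.02% to 13.3% in the 8-array fits and 4.9% to 7.21% in the 9-array fits had an unadjusted p under 0.05. The 7 were at Myc (SU6656, and the difference in MEK inhibition with minus without PDGF), Mxi1 and Mxd4.

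The wider network was described by 26 other genes, among them the remaining MYC and MXD family members, MLX and its partners, SIN3 and NCOR corepressors and regulators of MYC stability. Of the 19 tested in the 8-array table and the 12 in the 9-array table, limma called 0 in either direction for PDGF (1 and 3 at an unadjusted p under 0.05), with medians of −0.02 and −0.12 beside −0.03 and −0.03 over all probe sets. Over all probe sets, 16.4% and 13.3% had an unadjusted p under 0.05, 2.5% and 1.43% rose, and 0.814% and 0.264% fell. With so few genes, 0 called lies close to these shares. The lowest p values belonged to Mlxip (0.32, SE 0.14) and Mlx (0.25, SE 0.117) in the 8-array table, and to Huwe1 (−0.30, SE 0.109) and again Mlx (0.35, SE 0.149) in the 9-array table. MLX and MLXIP form a parallel dimer that senses glucose metabolites, and HUWE1 is a ubiquitin ligase that acts on MYC. Their adjusted p values were 0.276 to 0.348.

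Among genes that MYC is known to raise, many of them of ribosome assembly and metabolism, none passed the test for PDGF. Of 30 tested in the 8-array table and 31 in the 9-array table, 0 passed in either direction by limma (5 and 4 at an unadjusted p under 0.05), with medians of 0.02 and −0.00023. Over all probe sets, 16.4% and 13.3% had an unadjusted p under 0.05, 2.5% and 1.43% rose, and 0.814% and 0.264% fell. The list thus lay near the shares over all probe sets. Tfrc, the transferrin receptor, had 0.69 (SE 0.186, limma adjusted p = 0.0883) and 0.41 (SE 0.148, adjusted p = 0.277), and Nop58, a nucleolar ribonucleoprotein subunit, 0.28 (adjusted p = 0.191) and 0.44 (adjusted p = 0.138). Odc1, ornithine decarboxylase, had 0.19 (limma adjusted p = 0.24) and 0.16 (adjusted p = 0.689). Hspd1, a mitochondrial chaperonin, had −0.63 (SE 0.143, limma adjusted p = 0.0612) in the 9-array table and −0.03 (adjusted p = 0.878) in the 8-array table. In the LY294002 fit 1 of 30 fell, Srm, which encodes spermidine synthase (−0.65, SE 0.105, limma adjusted p = 0.0345). That fit called 0.511% of all probe sets in either direction. In it 25 of 30 were below 0, with a median of −0.15 beside 0.00049 over all probe sets. With SU6656 and with UO126 in the same table, 20 of 30 were below 0 (medians −0.086 and −0.114), and 0 were called. Of 9 genes that MYC is known to lower, 1 also fell with LY294002. CACGTG was in 8 of the 32 promoters matched to this list (25%), beside 7.15% of all 32851 promoters. These promoters belong to 27 of the 32 listed genes, of which 7 held it.

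Genes that MYC is known to lower gave 3 rises among 9 tested in the 8-array table and 1 among 9 in the 9-array table, where 2.5% of 15839 and 1.43% of 8696 probe sets rose, with 0 falls in each and medians of −0.04 and 0.0042. Thbs1, which encodes thrombospondin, rose by 1.90 (SE 0.0936, limma adjusted p = 6.31e-06) in the 8-array table, and Cdkn1a, the cell cycle inhibitor p21, rose by 0.80 (SE 0.127, adjusted p = 0.00782) there and had 0.65 (adjusted p = 0.118) in the 9-array table. Gadd45b, a stress sensor, rose by 1.00 (SE 0.104, adjusted p = 0.00057) and 1.34 (SE 0.129, adjusted p = 0.000248). Thbs1 and Cdkn1a are also known to be raised early by growth factors. Cdkn1b, the cell cycle inhibitor p27, had −0.31 (limma adjusted p = 0.206) and −0.60 (adjusted p = 0.33), and Gadd45a −0.58 (adjusted p = 0.253) and −0.70 (adjusted p = 0.0972).

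**Figure D5:**
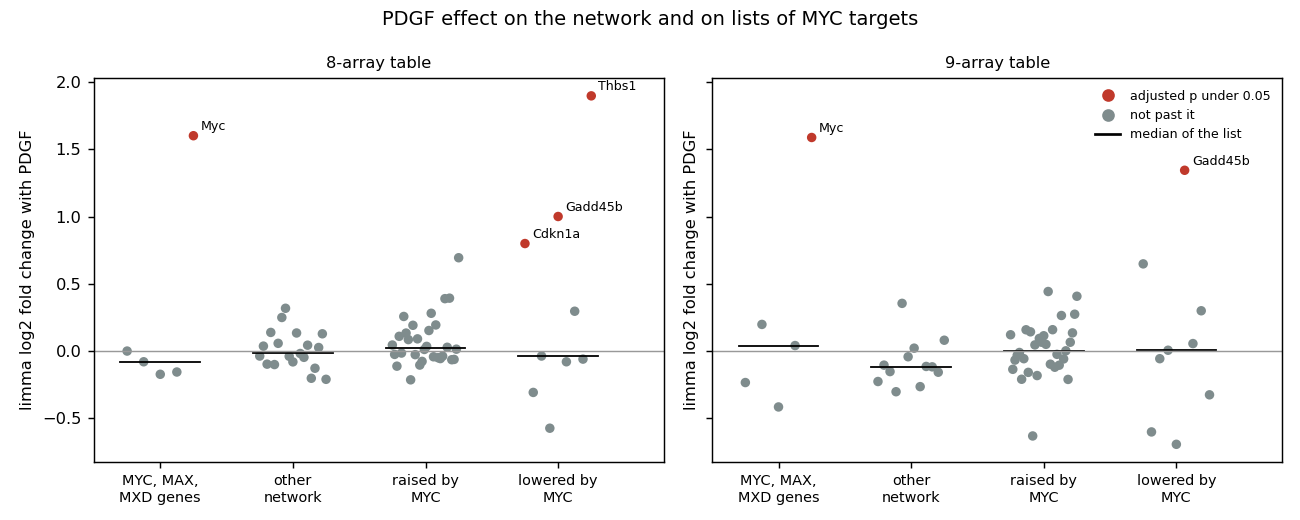
PDGF effect in limma (y axis, log2 fold change over 4 pairs) for each gene of 4 lists in the 8-array table (left) and the 9-array table (right), red where the adjusted p is under 0.05; black lines are medians. Myc is the only red point among the 5 network genes in each table, the medians of all lists lie between −0.12 and 0.04, and the red points among genes lowered by MYC are Thbs1, Gadd45b and Cdkn1a on the left and Gadd45b on the right.

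The genes whose values followed Myc most closely were named by Pearson correlation of log2 values. Over the 8 arrays of the 8-array table these were Ier5 (r = 0.986), Skil (0.985), Klf9 (0.984), Bach1 (0.984) and Ifrd1 (0.98), of 9217 genes. Over the 9 arrays of the 9-array table, after subtracting each experiment's mean, they were Zfand2a (r = 0.964), Tgif1 (0.953), Ifrd1 (0.951), Atf3 (0.949) and Pcf11 (0.946), of 6359 genes. Ifrd1 was in both sets. In the other table Bach1 ranked 24, Tgif1 28, Atf3 56, Klf9 131, Skil 202, Zfand2a 586 (r = 0.643) and Pcf11 941 (r = 0.521), and Ier5 had no value there. Of the members, each at its brightest probe set, Mxd4 ran most against Myc, with r = −0.74 over 8 arrays and −0.90 over 9. Its other probe sets were not set against Myc, and the share of all genes at such an r was not counted. These are descriptions over arrays that share experiments and the PDGF contrast.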

How the data were processed

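RNA was measured on 17 one-colour oligonucleotide arrays. The files hold, as deposited, a linear intensity (signal) for each probe set. The authors' software is not given in the sources used here. Every array had a trimmed mean (2% left out per end) between 500.2 and 500.4, so each had been scaled to a common level before deposit. Genes were named from the platform annotation, updated through Entrez IDs with a RefSeq table of assembly GRCm38.p6. Control probe sets (64 and 66) were left out, values were quantile normalised within each table, and log2 of the value plus the 20th percentile (36.3 and 21.2 units) was taken. The lowest 30% by mean were left out. All 15 member probe sets passed. The brightest probe set stands for a gene.

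Fits used limma 3.58.1 in R 4.3.3 (lmFit, eBayes with a trend), Benjamini-Hochberg over all probe sets kept, threshold 0.05, with 3 residual degrees of freedom. Pairs with and without PDGF that share experiment and inhibitor were the block in the PDGF fits. The 8-array inhibitor effects came from the same additive fit. The 9-array inhibitor fit had experiment, PDGF, MEK inhibition, their interaction and SU6656 as terms. The residual is not a spread of replicates, since it holds interactions without a term. The 2 tables were never tested together. Scripts were tested on simulated data. Alternatives were another scaling, offset, filter, block, variance trend, probe set rule and each array left out.

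The members and lists were chosen with earlier results of these data known. Named in each list were genes with the smallest p, up to 6 per table, and for likeness the 5 genes with the highest correlation with Myc.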

Additional observations from a re-analysis of the deposited data

Results flagged for a closer look

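Under MEK inhibition the Myc values with and without PDGF pointed in opposite directions: both inhibitor arrays of the MEK experiment were below PDGF alone (−0.45 and −0.74), and both were above untreated cells (0.60 and 1.26). Effects of inhibitor and vehicle cannot be told apart against untreated cells. The difference of the effects in limma was −1.05 (SE 0.413, 95% interval −1.97 to −0.13, unadjusted p = 0.0285, adjusted p = 0.999), which did not pass the threshold. Without 1 array at a time it ranged from −1.54 to −0.58. For Mxi1 the direct differences of the same arrays were −0.07 and −0.04 with PDGF and 0.17 and 0.51 without. The first of these are small beside the SD over all probe sets, 0.474 for PD98059 with PDGF, and the fitted effects had the same sign, 0.11 with PDGF and 0.18 without, a difference of −0.068 (limma adjusted p = 0.999), so the fit shows no opposition for Mxi1.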

How the results depend on the processing

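Over all alternatives, 384 of 451 values kept their direction and their side of the threshold, or stayed near the value reported, among them 145 of 156 for Myc. Part of this count was fixed in advance. Myc has 1 probe set per table, so the probe set rules could not change its estimate, nor could the filter or the variance trend. An effect that was not called counted as kept if its sign held and it was again not called. The rise of Myc with PDGF in the 8-array table passed the threshold under all 17 alternatives. In the 9-array table (main value 1.589, limma adjusted p = 0.0122) it kept 1.589 but missed the threshold without the filter on dim probe sets (adjusted p = 0.0575), with no replicate block for the paired arrays (0.148) and without the variance trend (0.134). It ranged from 1.257 to 1.922 with single arrays left out, where 4 of 8 missed it. The mean response of Myc was 1.514 with an offset at the 50th percentile. Counts of probe sets called for PDGF were 525 and 147 in the 8- and 9-array tables, 244 and 60 with no replicate block, 184 and 65 without the trend, and 262 to 387 and 98 to 116 with single arrays left out. Scaling to a common median gave 578 up and 65 down in the 8-array table, where 396 and 129 were reported. SU6656 called 17 there, 11 without the filter, 0 without the trend and 0 to 19 with arrays left out. UO126 called 7, then 0 without the filter, 0 without the trend and 0 to 8 with arrays left out. LY294002 called 81, then 45, 0 and 4 to 105, and its split of 32 up and 49 down became 27 and 27 with median scaling. MEK inhibition with PDGF called 0, but 3 with median scaling, 1 as deposited, 1 with the offset at the 50th percentile and 0 to 2 with arrays left out. Without PDGF it called 1, but 0 with that offset, 0 without the filter, 0 without the trend and 0 to 2 with arrays left out. With arrays left out, the difference between them called 0 to 1, and SU6656 called 0 to 2 on the 9 arrays. Signs turned for small effects: Max with PDGF in the 8-array table was 0.00128 with the offset at the 50th percentile and −0.1654 to 0.1244 with arrays left out, Mnt there −0.1686 to 0.03185, and Mxi1 in the 9-array table −0.08224 to 0.1399. With arrays left out, Myc had −0.6667 to 0.06412 for UO126 in the 8-array table, −0.602 to 0.354 for MEK inhibition with PDGF and −0.01909 to 1.022 without it. The cause was not tested. No other call on a member changed when the block was left out. With 1 array per condition, the number of arrays limits every test.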
